A study of Mus musculus with 50 samples.

Results

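The comparison asks whether a mutant Flt3 allele changes the same transcripts in stem cells as in committed progenitors of the mouse bone marrow. It is the difference between 2 differences at 4 weeks: Flt3 LSK against WT LSK, minus Flt3 GMP against WT GMP. The members are the genes for which this difference was called, and they were found by 1 fit over 12 of the 50 libraries of the series, with 3 libraries in each of 4 groups. Of 33924 gene symbols 9525 had enough counts to be tested, and 648 (6.8%) had unequal Flt3 effects in LSK and GMP.

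The groups were LSK cells of Flt3 mice, LSK cells of WT mice, GMP of Flt3 mice and GMP of WT mice, all labelled 4w. LSK are lineage-negative marrow cells with Sca1 and Kit on their surface, the fraction that holds the blood stem cells. GMP are granulocyte and monocyte progenitors. Per the labels, mutations were switched on by a Cre, Dre or Flp recombinase and cells were sorted by flow cytometry. Neither the Flt3 allele, nor the recombinase and cell type that drive it in these mice, nor the age of the mice at the start of the 4 weeks is given in the sources used here. Sample codes begin differently in Flt3 and in WT mice, so an effect of the genotype and one of the coded series of mice cannot be told apart.

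FLT3 is a receptor tyrosine kinase of early progenitors. Mutant forms found in acute myeloid leukaemia signal without ligand and activate STAT5, the RAS and MAPK cascade and PI3 kinase. STAT5 induces the genes of its own inhibitors, among them Socs2 and Cish, while MAPK activity induces immediate early transcription factors such as Jun and Fos and the phosphatase genes that shut the cascade down. In normal marrow Flt3 is turned up when stem cells become multipotent progenitors and is low in GMP.

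Levels are CPM, read counts scaled to a common library total over the tested genes with TMM factors. An effect is a log2 fold change, Flt3 over WT, ± its SE from edgeR's quasi-likelihood fit. The difference of effects is the effect in LSK minus that in GMP, so a positive value means a higher fold in LSK. A change was called at a Benjamini-Hochberg adjusted p under 0.05 over all tested genes. The p-values measure the spread between the 3 libraries of a group, which come from separately coded samples.

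Flt3 itself (chr5:147330741-147400489, GRCm38) had unequal effects. It had 258, 228 and 237 CPM in Flt3 LSK, against 148, 203 and 206 CPM in WT LSK. It had 126, 132 and 156 CPM in Flt3 GMP, against 20.3, 29.97 and 32.3 CPM in WT GMP. Neither pair of groups overlapped, but only the effect in GMP was called: 0.38 ± 0.15 in LSK (edgeR adjusted p = 0.105) and 2.29 ± 0.20 in GMP (adjusted p = 3.97e-10). The difference was -1.91 ± 0.25 (adjusted p = 9.96e-06). A transcript count does not tell the mutant allele from the WT allele.

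Of the genes that define the sort, Kit, Fcgr3 and Ly6a changed with genotype and Cd34 was not called in LSK (-0.09 ± 0.13, adjusted p = 0.76) or in GMP (0.30 ± 0.13, adjusted p = 0.132). Kit, the receptor gene by which LSK and GMP are gated, had 51.9, 49.7 and 69.5 CPM in Flt3 LSK, against 199.8, 263 and 204 CPM in WT LSK. In GMP it had 55.7, 70.1 and 69.7 CPM in Flt3 mice, against 66.8, 120.5 and 101 CPM in WT mice. Kit thus fell in LSK, and the difference from GMP was called (-1.35 ± 0.28, adjusted p = 0.00348). Its effect in GMP was not called (adjusted p = 0.0621), but was without WT GMP replicate 1 (adjusted p = 0.0127). Fcgr3, an Fc receptor gene of the GMP gate, had 179.7, 103 and 73.8 CPM in Flt3 GMP, against 501, 530.5 and 589.8 CPM in WT GMP. It was also lower in Flt3 LSK (-3.81 ± 0.83, adjusted p = 0.019, lost without Flt3 LSK replicate 2 or 3 at adjusted p of 0.0509 and 0.0997), and the difference was not called (adjusted p = 0.458). Fcgr2b, the other Fc receptor gene among the sort markers, was not called in either fraction. It had 59.6, 20.1 and 42.1 CPM in Flt3 LSK, against 20.8, 35.6 and 25.5 CPM in WT LSK. In GMP Fcgr2b had 160, 109 and 103 CPM in Flt3 mice, against 196, 133 and 164 CPM in WT mice. Ly6a, which encodes Sca1, was higher in both Flt3 fractions, by 1.15 ± 0.23 in LSK and by 1.77 ± 0.54 in GMP, with no call of a difference between them (adjusted p = 0.594). The GMP call of Ly6a was lost without Flt3 GMP replicate 2 or 3 or WT GMP replicate 1 or 3 (adjusted p between 0.0996 and 0.141). That of Fcgr3 was lost without any GMP library but Flt3 GMP replicate 1 (adjusted p between 0.0583 and 0.107). In sorted bulk cells, a change in the mix of cells inside a gate and a change of RNA per cell cannot be told apart, and this holds for each result below.

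Library totals lay between 572370 counts, in a Flt3 GMP library, and 3030228 counts. Flt3 GMP had the fewest, 572370 to 951622, against 1014847 to 2009072 in WT GMP. Between 11050 and 14435 genes were detected per library. Summed over 14 markers of iron-recycling macrophages, levels were 39.3 to 69.2 CPM in Flt3 LSK, 374 to 2411 CPM in WT LSK, 30.2 to 44.9 CPM in Flt3 GMP and 114 to 203 CPM in WT GMP. WT LSK replicate 3 was the highest. T and NK cell markers, 10 in all, summed to at most 31.0 CPM in any library. Of 8 B and plasma cell markers, the B cell gene Ms4a1 stayed under 2.4 CPM. The plasma cell gene Igj had 123, 262 and 198 CPM in WT LSK, against 1.75 to 8.61 CPM in Flt3 LSK. In GMP Igj had 1.04 to 9.83 CPM in Flt3 mice and 7.68 to 10.7 CPM in WT mice. Xbp1, of the same list, went the other way in LSK, at 394 to 414 CPM in Flt3 mice and 161 to 277 CPM in WT mice.

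Both effects were broad. In LSK 1086 genes (11.4%) changed, with 428 higher (4.49%) and 658 lower (6.91%). In GMP 1509 genes (15.8%) changed, with 685 higher (7.19%) and 824 lower (8.65%). The difference of effects was positive for 346 genes (3.63%) and negative for 302 (3.17%), and the median over all tested genes was -0.08. Of the 648 genes, 373 changed in GMP alone, 149 in LSK alone, 38 in both in the same direction and 26 (0.273% of tested genes) in both in opposite directions. For the other 62 neither single effect was called. A call in one fraction alone is not what defines the 648, since for each of them the difference itself was tested. Counts of called list members below are to be set against the shares over all tested genes given here.

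**Figure D1:**
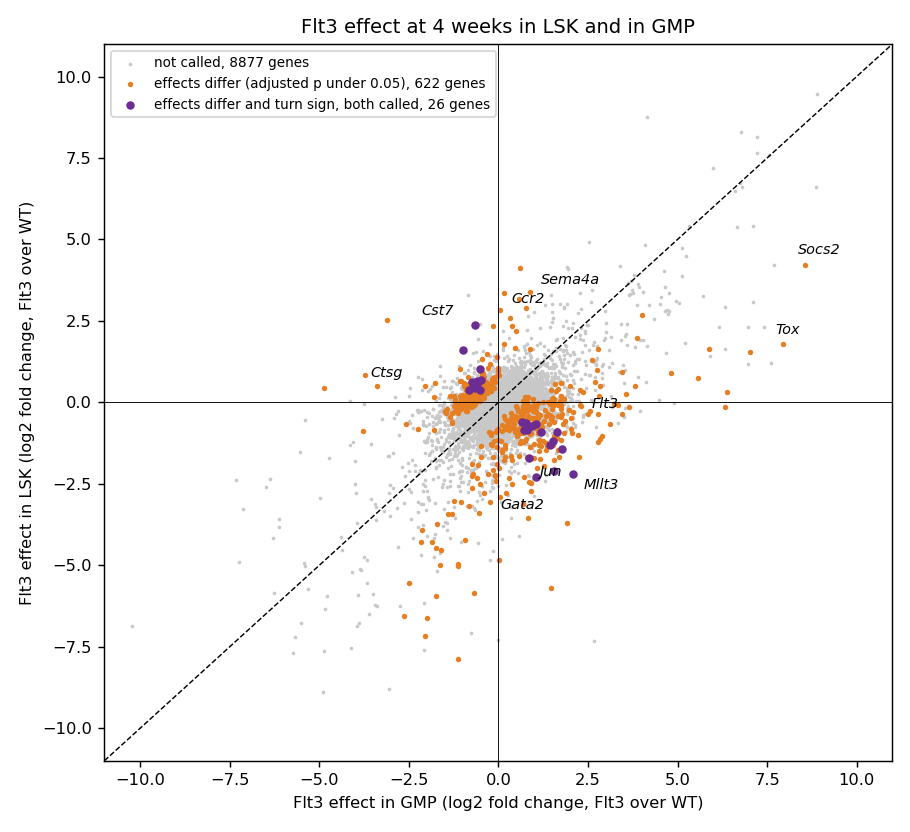
The Flt3 effect in LSK (y axis, log2 fold change) is plotted against the Flt3 effect in GMP (x axis) for 9525 tested genes, and equal effects lie on the dashed line. The 26 purple genes turn sign and lie at the upper left and the lower right, while Socs2 and Tox lie to the right of the line at the upper right.

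Some of these genes carry a STAT recognition motif close to their start, at a share near that of all tested genes. The motif searched was TTCNNNGAA, which reads the same on both strands, over 250 bases before to 50 after the annotated start (RefSeq, GRCm38.p6). The windows below were picked for holding the motif. Cish is a classical STAT5 feedback gene, higher in both Flt3 fractions, whose difference of effects was not called. Ctsg, Nkg7, Ncln and Zfp36 are genes with unequal effects described further on. Each window is written 5′ to 3′ on the gene's strand, with the motif in capitals.
Cish, plus strand, chr9:107296619-107296678: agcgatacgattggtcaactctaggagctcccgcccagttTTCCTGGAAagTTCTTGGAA
Ctsg, minus strand, chr14:56102744-56102803: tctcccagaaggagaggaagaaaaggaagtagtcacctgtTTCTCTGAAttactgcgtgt
Nkg7, plus strand, chr7:43436888-43436947: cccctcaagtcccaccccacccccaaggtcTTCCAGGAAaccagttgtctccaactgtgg
Ncln, minus strand, chr10:81496435-81496494: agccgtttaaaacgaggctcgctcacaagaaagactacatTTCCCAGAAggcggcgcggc
Zfp36, minus strand, chr7:28379226-28379285: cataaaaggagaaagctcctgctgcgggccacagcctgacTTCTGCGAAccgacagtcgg

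In Cish the first motif begins at the annotated start and the next 11 bases after it. The motif begins 189 bases before the start in Ctsg, 220 in Nkg7, 91 in Ncln and 17 in Zfp36. Promoters were matched for 7587 of the 9525 tested genes. The motif stood in 30 of 356 promoters of genes with a negative difference (8.43%), in 24 of 330 promoters of genes with a positive difference (7.27%) and in 649 of 9642 promoters of all tested genes (6.73%). Among the sign-turning genes 2 of 34 promoters held it (5.88%). These shares lie close together, and a match is a string of letters and not a bound site.

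Of the 26 sign-turning genes, 15 were lower in Flt3 LSK and higher in Flt3 GMP than in WT. They are Mllt3, Plxnc1, Notch2, Zfp187, Plec, Gm11428, Dusp1, Dhrs3, Jun, Stat5b, Ypel3, Tspan13, Dennd5a, Uba7 and Ptpre. Among them are an immediate early transcription factor, a phosphatase of MAP kinases, a Notch receptor and the gene of STAT5B itself. In 23 of the 26 neither pair of groups overlapped, where over all tested genes 13.2% lay wholly above and 15.4% wholly below WT in LSK, and 15.9% and 16.3% in GMP. Because the calls chose these genes, nothing is read from that count.

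Jun (chr4:95049036-95052222) encodes a subunit of the AP-1 transcription factor. It had 48.7, 34.04 and 67.1 CPM in Flt3 LSK, against 129, 208 and 182 CPM in WT LSK. It had 108, 108 and 159 CPM in Flt3 GMP, against 64.4, 71.8 and 73.7 CPM in WT GMP. The groups did not overlap in either fraction, and the effects were -1.72 ± 0.21 in LSK and 0.84 ± 0.22 in GMP (difference -2.56 ± 0.31, adjusted p = 5.41e-06). The call in GMP was lost without Flt3 GMP replicate 3 (adjusted p = 0.12), where the difference stayed called.

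Dusp1, a phosphatase gene that ends MAP kinase signalling, followed the same pattern. It had 54.5, 30.5 and 72.3 CPM in Flt3 LSK, against 81.7, 111 and 115 CPM in WT LSK. It had 57.5, 83.6 and 103 CPM in Flt3 GMP, against 25.1, 30.5 and 23.8 CPM in WT GMP. The effects were -0.91 ± 0.24 and 1.63 ± 0.28, with a difference of -2.54 ± 0.37 (adjusted p = 6.7e-05). The LSK call was lost without Flt3 LSK replicate 2 (adjusted p = 0.0615) or WT LSK replicate 3 (adjusted p = 0.0544).

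The list of immediate early genes had a negative difference in 5 of 9 tested members (Jun, Fos, Dusp1, Egr1 and Zfp36) and a positive one in none. In LSK 5 of 9 fell and none rose, and in GMP 5 rose and none fell. Over all tested genes 6.91% fell in LSK, 7.19% rose in GMP and 3.17% had a negative difference. The median effect of the list was -0.83 in LSK and 0.84 in GMP, against -0.03 and 0.04 over all tested genes. The members were not moved alike in LSK. Fos had 82.7, 68.1 and 126 CPM in Flt3 LSK, against 80.1, 99.9 and 128 CPM in WT LSK, with overlapping groups. The GMP levels were 102, 120.5 and 184 CPM in Flt3 mice, against 39.4, 48.6 and 54.5 CPM in WT mice, and rose by 1.52 ± 0.26 (adjusted p = 0.000208). Without Flt3 GMP replicate 3 the GMP count was 3 of 9. Without WT LSK replicate 3 the LSK count was 1 of 9, and without Flt3 LSK replicate 2 it was 2, while the count of negative differences was 3 without Flt3 GMP replicate 3 and 4 or more without any other library.

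Stat5b, the signal transducer downstream of mutant FLT3, had 35.2, 46.3 and 52.3 CPM in Flt3 LSK, against 72.6, 96.5 and 78.4 CPM in WT LSK. It had 84.5, 56.5 and 64.5 CPM in Flt3 GMP, against 38.2, 45.2 and 33.0 CPM in WT GMP. The groups did not overlap, and the difference was -1.64 ± 0.33 (adjusted p = 0.0021). The effects, -0.85 ± 0.22 and 0.79 ± 0.24, rest on few libraries. The LSK call was lost without Flt3 LSK replicate 1 (adjusted p = 0.0635), and the GMP call without Flt3 GMP replicate 1 or 3 or WT GMP replicate 1 or 3 (adjusted p between 0.0562 and 0.119).

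Mllt3, a chromatin reader gene known from stem cell maintenance, had the most negative difference of the sign-turning genes. It had 5.13, 8.73 and 9.54 CPM in Flt3 LSK, against 45.2, 41.3 and 25.5 CPM in WT LSK. In GMP it was low, at 3.59, 16.0 and 6.24 CPM in Flt3 mice, against 2.39, 2.26 and 1.54 CPM in WT mice. The difference was -4.29 ± 0.76 (adjusted p = 0.000685). Its rise in GMP, 2.08 ± 0.65, was not called without Flt3 GMP replicate 2 (adjusted p = 0.29), WT GMP replicate 2 (adjusted p = 0.0644) or WT GMP replicate 3 (adjusted p = 0.0805).

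Among the receptors, Notch2 had 11.5, 21.8 and 8.30 CPM in Flt3 LSK, against 39.7, 27.6 and 35.6 CPM in WT LSK. It had 23.4, 30.7 and 39.5 CPM in Flt3 GMP, against 0, 13.0 and 11.5 CPM in WT GMP (difference -3.21 ± 0.66, adjusted p = 0.0046). Flt3 GMP thus reached the level of WT LSK. The LSK call of Notch2 was lost without any 1 of Flt3 LSK replicates 1 and 3, WT LSK replicates 1 and 3 and Flt3 GMP replicate 2, and its GMP call without Flt3 GMP replicate 3, at adjusted p between 0.0528 and 0.177. Plxnc1, a semaphorin receptor gene, had effects of -2.12 ± 0.36 and 1.54 ± 0.48. The tetraspanin gene Tspan13 had 302, 278 and 294 CPM in Flt3 LSK, against 472, 588 and 534 CPM in WT LSK. Levels in GMP were 117, 133 and 174 CPM in Flt3 mice, against 93.1, 97.3 and 69.1 CPM in WT mice (difference -1.58 ± 0.22, adjusted p = 2.64e-05). The Plxnc1 rise in GMP was lost without Flt3 GMP replicate 1 or 3 or WT GMP replicate 1 or 3 (adjusted p between 0.0828 and 0.0966), and that of Tspan13 without Flt3 GMP replicate 3 (adjusted p = 0.0625).

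Dhrs3, a retinaldehyde reductase gene, and Ypel3 kept all 3 calls on leaving out any 1 of the 12 libraries. Dhrs3 had 53.8, 82.9 and 51.4 CPM in Flt3 LSK, against 106, 103 and 133 CPM in WT LSK, and in GMP 95.2, 136 and 142 CPM in Flt3 mice, against 37.0, 66.2 and 59.1 CPM in WT mice. Its effects were -0.90 ± 0.21 and 1.18 ± 0.22. For Ypel3 they were -0.73 ± 0.16 and 0.93 ± 0.19. The remaining named genes of this direction were the plectin gene Plec (-1.18 ± 0.31 and 1.53 ± 0.39), the zinc finger gene Zfp187, now Zscan26 (-1.32 ± 0.41 and 1.44 ± 0.43), and Dennd5a (-0.68 ± 0.20 and 1.06 ± 0.23). The LSK call was lost for Plec without Flt3 LSK replicate 1 or 2 or WT LSK replicate 1, for Dennd5a without Flt3 LSK replicate 1 or 3 or WT LSK replicate 2, and for Zfp187 without Flt3 LSK replicate 1 or 3 or WT LSK replicate 3 (adjusted p between 0.0507 and 0.287). The GMP call of Zfp187 was lost without Flt3 GMP replicate 3 or WT GMP replicate 1 or 2 (adjusted p between 0.075 and 0.263). Gm11428, now Wfdc17, had 35.9, 28.8 and 31.4 CPM in Flt3 LSK, against 125, 180.3 and 173 CPM in WT LSK. In GMP it had 21.6, 65.1 and 37.4 CPM in Flt3 mice, against 27.4, 20.9 and 14.6 CPM in WT mice, and these groups overlapped. Its effects were -2.30 ± 0.25 and 1.05 ± 0.31, and the call in GMP was lost without Flt3 GMP replicate 2 or WT GMP replicate 2 or 3. In LSK it was lower in Flt3 mice like the macrophage markers above, whose part in it was not tested.

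The other 11 sign-turning genes were higher in Flt3 LSK and lower in Flt3 GMP than in WT. They are Cst7, 1190002H23Rik, Plac8, Elovl5, Rasgrp2, Pgls, Ncln, Manf, Cycs, Tpi1 and Rps27l. Cst7 (chr2:150570415-150578944) encodes cystatin F, a protease inhibitor of myeloid granules, and its difference of 3.03 ± 0.20 had the smallest adjusted p of the named genes (2.38e-12). It had 347, 375 and 356 CPM in Flt3 LSK, against 63.8, 59.7 and 79.2 CPM in WT LSK. It had 518, 418 and 448 CPM in Flt3 GMP, against 782, 642 and 731 CPM in WT GMP. The effects were 2.39 ± 0.14 and -0.64 ± 0.13, with no overlap in either fraction.

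Plac8, a gene of myeloid progenitors, lay at a much higher level. It had 3909, 4112 and 4733 CPM in Flt3 LSK, against 1919.9, 2022 and 2280.1 CPM in WT LSK. Among GMP it had 8046, 6823 and 6620.4 CPM in Flt3 mice, against 11336, 8853 and 10296 CPM in WT mice. The effects were 1.04 ± 0.13 and -0.50 ± 0.13, and the difference was 1.54 ± 0.18 (adjusted p = 1.23e-06). The same shape was seen for 1190002H23Rik, now Rgcc, a cell cycle regulator gene, at 1.61 ± 0.18 in LSK and -0.98 ± 0.17 in GMP. Cst7, Plac8 and 1190002H23Rik kept all 3 calls on leaving out any 1 library.

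The rest of this direction moved less in LSK. Rasgrp2, a Rap1 exchange factor gene, had effects of 0.66 ± 0.15 and -0.59 ± 0.15, and Pgls, of the pentose phosphate pathway, 0.56 ± 0.15 and -0.60 ± 0.15. Cycs, which encodes cytochrome c, had 0.45 ± 0.14 and -0.65 ± 0.14, and the ER stress factor gene Manf 0.47 ± 0.15 and -0.72 ± 0.15. Ncln, an ER membrane protein gene, had 0.70 ± 0.17 and -0.49 ± 0.17. The smallest effects in LSK were those of the glycolytic gene Tpi1 and of Rps27l, both 0.39 ± 0.13. The LSK and GMP calls of the 26 genes depended on single libraries more than the difference did. All 26 kept opposite effects and a called difference in each of 19 alternative fits, whereas Rps27l and Tpi1 kept all 3 calls in 5 of the 12 fits that left out a library, Ncln in 6 and Ptpre in 3.

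**Figure D2:**
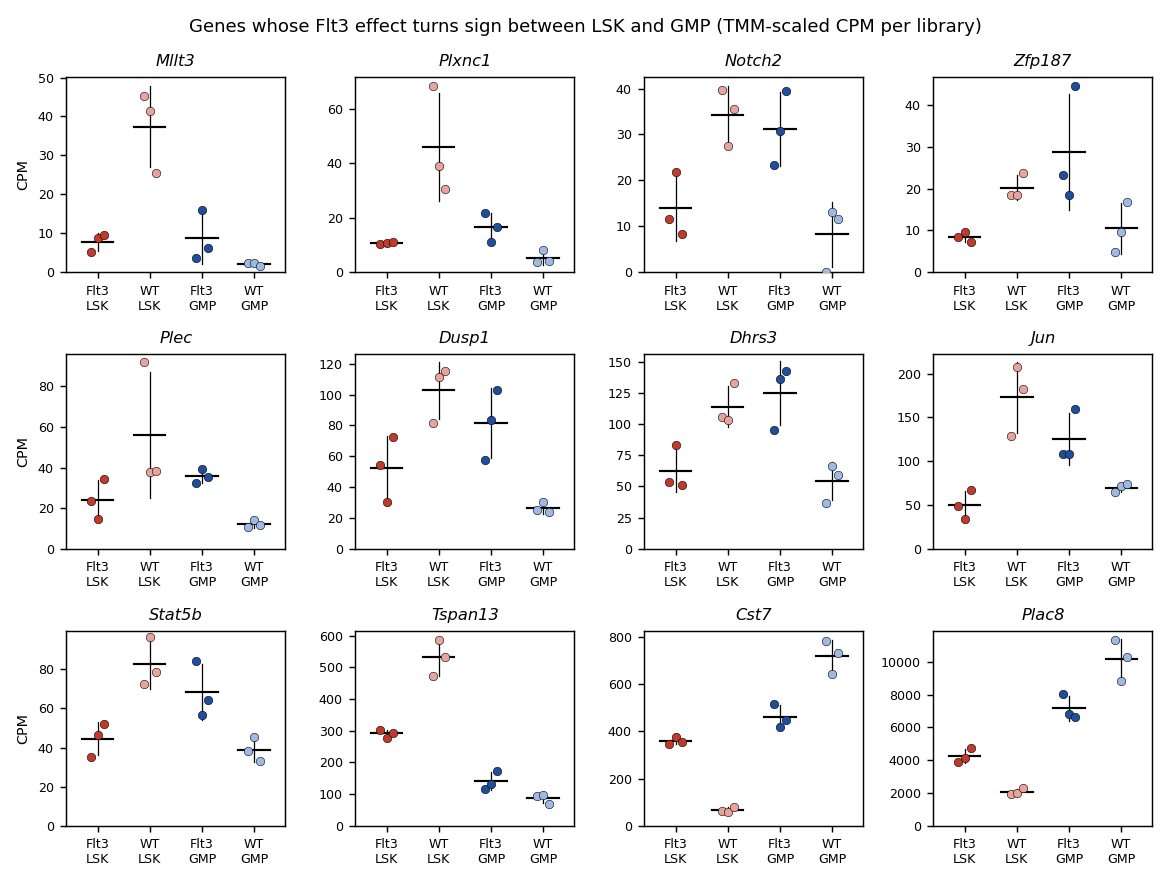
CPM per library of 12 of the 26 sign-turning genes in the 4 groups; points are libraries, the horizontal line is the mean and the vertical line spans ± 1 SD (n = 3). In 10 genes, such as Jun, Flt3 LSK lies below WT LSK and Flt3 GMP above WT GMP, and in Cst7 and Plac8 the order is the opposite in both fractions.

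STAT5 feedback was induced in both fractions, by unequal folds for 1 gene. Socs2 (chr10:95383903-95417321), which encodes an inhibitor of cytokine receptor signalling, had 873, 1068 and 984 CPM in Flt3 LSK, against 72.9, 52.8 and 31.7 CPM in WT LSK. It had 491, 542 and 514 CPM in Flt3 GMP, against 2.39, 0.566 and 1.54 CPM in WT GMP. The log2 fold was thus smaller in LSK (4.21 ± 0.21) than in GMP (8.56 ± 0.36), while the level reached was higher in LSK. The size of the GMP fold rests on few reads in WT GMP, 5 counts over the group. The difference was -4.35 ± 0.53 on the log2 scale (adjusted p = 3.27e-05), and on the linear scale its sign was the opposite. Of 15 tested STAT5 targets Socs2 alone had unequal effects, a share near the 6.8% of all tested genes. In LSK 6 of the 15 rose and 1 fell, and in GMP 4 rose (7 without WT LSK replicate 1) and 1 fell. The shares over all tested genes were 4.49% and 6.91% in LSK, and 7.19% and 8.65% in GMP. Cish, the gene of the promoter printed above, had 61.5, 60.2 and 92.0 CPM in Flt3 LSK, against 6.18, 10.3 and 10.4 CPM in WT LSK. In GMP it had 12.6, 25.8 and 41.6 CPM in Flt3 mice, against 2.39, 0.566 and 0 CPM in WT mice. Cish rose by 3.04 ± 0.36 in LSK and by 5.04 ± 0.64 in GMP, and the difference of -1.99 ± 0.85 was not called (adjusted p = 0.161).

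Among MAPK feedback genes the folds were opposite in sign for different members, and 1 of 7 tested had unequal effects. Dusp5, a phosphatase gene specific for ERK, had 154, 205 and 249 CPM in Flt3 LSK, against 30.3, 32.2 and 33.5 CPM in WT LSK. It had 77.3, 120.5 and 77.0 CPM in Flt3 GMP, against 7.16, 6.79 and 3.07 CPM in WT GMP. It rose by 2.67 ± 0.21 and 4.01 ± 0.31, and the difference of -1.34 ± 0.40 (adjusted p = 0.039) was lost without any 1 of 8 libraries, all but WT LSK replicate 1, Flt3 LSK replicate 3 and Flt3 GMP replicates 1 and 3 (adjusted p between 0.0554 and 0.15). Dusp6, another ERK phosphatase gene, had effects of -2.78 in LSK and -3.05 in GMP, both called, with no call of a difference (adjusted p = 0.848). In LSK 4 of the 7 fell and 1 rose, and in GMP 1 fell and 1 rose. The shares over all tested genes were 6.91% and 4.49% in LSK, 8.65% and 7.19% in GMP, and 6.8% for unequal effects.

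Stem cell genes fell in LSK. Over all tested genes 6.91% fell and 4.49% rose in LSK, 7.19% rose and 8.65% fell in GMP, and 3.17% had a negative difference. Of 17 tested stem cell genes 13 fell and 1 rose in Flt3 LSK, while in GMP 3 rose and 3 fell. A negative difference was called for 6 of them and a positive one for none. The median effect was -2.21 in LSK and -0.02 in GMP, where it was -0.59 without Flt3 GMP replicate 2, -0.32 without WT GMP replicate 3, -0.28 without WT GMP replicate 1, -0.21 without Flt3 GMP replicate 1 and -0.09 without Flt3 GMP replicate 3. Gata2 (chr6:88193891-88207032), a transcription factor gene of stem cells, had 23.1, 35.8 and 28.9 CPM in Flt3 LSK, against 239, 231 and 250.1 CPM in WT LSK. The GMP levels were 62.9, 77.4 and 61.4 CPM in Flt3 mice, against 64.4, 98.4 and 71.4 CPM in WT mice. The LSK groups lay far apart and the GMP groups overlapped (-3.05 ± 0.19 and -0.24 ± 0.20, difference adjusted p = 3.32e-08). Flt3 LSK thus held less Gata2 transcript than GMP of either genotype.

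Procr, the endothelial protein C receptor gene that marks stem cells, had 1.92, 2.62 and 2.46 CPM in Flt3 LSK, against 34.5, 28.7 and 30.2 CPM in WT LSK. In GMP it was at 0 to 6.15 CPM in Flt3 mice, against 0 to 2.39 CPM in WT mice (difference -5.61 ± 1.06, adjusted p = 0.00132). Meis1, the Hox cofactor gene, had 68.6, 92.5 and 72.0 CPM in Flt3 LSK, against 229.8, 210.1 and 223 CPM in WT LSK. Levels in GMP were 35.9, 25.8 and 21.8 CPM in Flt3 mice, against 27.4, 28.8 and 19.2 CPM in WT mice (difference -1.62 ± 0.32, adjusted p = 0.00194). Unlike Gata2, Meis1 stayed higher in Flt3 LSK than in Flt3 GMP. Of the Hox genes and cofactors Meis1 was the 1 of 9 tested with unequal effects. Prdm16, another stem cell regulator gene, differed from the others in that its difference of -4.82 ± 1.18 (adjusted p = 0.0115) came from a rise in GMP of 5.57 ± 0.97 and not from a fall in LSK. Without WT LSK replicate 3, the library with the most macrophage transcript, 12 stem cell genes fell in LSK and 6 had a negative difference.

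Other genes with large negative differences had no common list. Ptrf, now Cavin1, a gene of the coat of caveolae, had 1.28, 1.75 and 0 CPM in Flt3 LSK, against 46.9, 39.0 and 48.6 CPM in WT LSK. It had 10.8, 2.46 and 3.12 CPM in Flt3 GMP, against 5.97, 9.05 and 7.68 CPM in WT GMP, and the GMP groups overlapped (difference -5.18 ± 0.96, adjusted p = 0.00101). Ptplad2, now Hacd4, a gene of long fatty acid synthesis, fell by 3.54 ± 0.37 in LSK with no call in GMP. Gng11, a G protein subunit gene, fell by 6.60 ± 0.58 in LSK and by 2.00 ± 0.62 in GMP. It had 0.641, 2.62 and 0 CPM in Flt3 LSK, against 78.4, 74.6 and 73.8 CPM in WT LSK. In GMP it had 10.8, 3.69 and 0 CPM in Flt3 mice, against 11.9, 17.0 and 18.4 CPM in WT mice. Both folds rest on few reads, 4 counts over Flt3 LSK and 9 over Flt3 GMP. The Gng11 difference of -4.61 ± 1.09 (adjusted p = 0.0111) was not called without Flt3 GMP replicate 1 (adjusted p = 0.154), and its GMP call was lost without Flt3 GMP replicate 2 or 3 or WT GMP replicate 2 or 3 (adjusted p between 0.0729 and 0.172). The antibody chain gene Igkc had 17.9, 10.5 and 35.4 CPM in Flt3 LSK, against 382, 1155 and 518 CPM in WT LSK, and its difference (-4.85 ± 1.18, adjusted p = 0.0483) was lost on leaving out any 1 of 9 libraries, all but WT LSK replicates 1 and 2 and WT GMP replicate 3 (adjusted p between 0.0511 and 0.174). Igj, the joining chain gene of plasma cells, moved with it, at 5.13, 1.75 and 8.61 CPM in Flt3 LSK and 123, 262 and 198 CPM in WT LSK. A part of plasma cells in these values was not tested.

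Tox, a nuclear factor gene, was among the genes with the largest negative differences, yet like Socs2 it rose in both fractions. It had 33.96, 41.0 and 43.4 CPM in Flt3 LSK, against 14.0, 5.74 and 12.2 CPM in WT LSK. It had 21.6, 17.2 and 19.8 CPM in Flt3 GMP and no counts in the 3 WT GMP libraries. Set against a floor of 3 counts summed over WT GMP, Flt3 GMP was at least 25.1-fold higher, and in LSK the effect was 1.78 ± 0.34 (difference adjusted p = 0.00202). Floors cover counting error only.

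Among the genes with a positive difference, 6 that rose in LSK are described here; they were picked for their calls and form no fixed list. Ccr2 (chr9:124101918-124109140), a chemokine receptor gene of monocytes, had 58.3, 18.3 and 37.2 CPM in Flt3 LSK, against 5.21, 2.30 and 6.84 CPM in WT LSK. Among GMP it had 46.7, 55.3 and 82.2 CPM in Flt3 mice, against 69.2, 58.2 and 54.5 CPM in WT mice. It rose by 2.82 ± 0.37 in LSK, and the GMP groups overlapped (difference 2.77 ± 0.49, adjusted p = 0.000717). Sema4a, a semaphorin gene, had 124, 127 and 88.6 CPM in Flt3 LSK, against 7.49, 9.19 and 14.4 CPM in WT LSK. In GMP it had 119, 120.5 and 112 CPM in Flt3 mice, against 56.1, 55.4 and 76.8 CPM in WT mice. It rose in both, by 3.40 ± 0.25 and 0.89 ± 0.22, and the 2 Flt3 groups overlapped each other.

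Mgst2 and Lta4h, genes of leukotriene synthesis, were among them. Mgst2 had 280.0, 224 and 294 CPM in Flt3 LSK, against 56.6, 47.1 and 52.9 CPM in WT LSK. The GMP levels were 232, 202 and 236 CPM in Flt3 mice, against 218, 211 and 310.2 CPM in WT mice (difference 2.48 ± 0.23, adjusted p = 1.28e-08). Flt3 LSK thus reached the level of GMP, where the groups overlapped. Lta4h rose by 1.06 ± 0.14 in LSK, with 1037, 905 and 837 CPM in Flt3 LSK, against 397, 454 and 484 CPM in WT LSK, and had -0.28 ± 0.13 in GMP. The thromboxane synthase gene Tbxas1 went the other way in LSK (-1.69 ± 0.24), so the list of lipid mediator enzymes, which holds Lta4h and Tbxas1 but not Mgst2, had 1 positive and 1 negative difference among 6. The Tbxas1 difference was not called without Flt3 GMP replicate 2 (adjusted p = 0.0814).

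Cd48, a surface gene whose protein is absent from the most immature stem cells, had 1184, 1277 and 1174 CPM in Flt3 LSK, against 324, 446 and 391 CPM in WT LSK. Levels in GMP were 739, 682 and 725 CPM in Flt3 mice, against 591, 512 and 448 CPM in WT mice. It rose more in LSK (1.65 ± 0.13) than in GMP (0.47 ± 0.13, lost without Flt3 GMP replicate 1 at adjusted p = 0.051 or WT GMP replicate 3 at 0.0951), with a difference of 1.18 ± 0.19 (adjusted p = 0.00016). Tifab rose by 2.90 ± 0.31 in LSK and 0.78 ± 0.24 in GMP, and the GMP call was lost without Flt3 LSK replicate 3, any Flt3 GMP library or WT GMP replicate 1 or 2 (adjusted p between 0.0635 and 0.137). Of 15 tested monocyte and macrophage genes 1, Ccr2, had a positive difference and 1, the lysozyme gene Lyz2, a negative one. Lyz2 had 367, 339.5 and 268 CPM in Flt3 LSK, against 582, 646 and 969 CPM in WT LSK, with the most in the library that held the most macrophage transcript. The part of those cells in the Lyz2 fall was not tested.

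**Figure D3:**
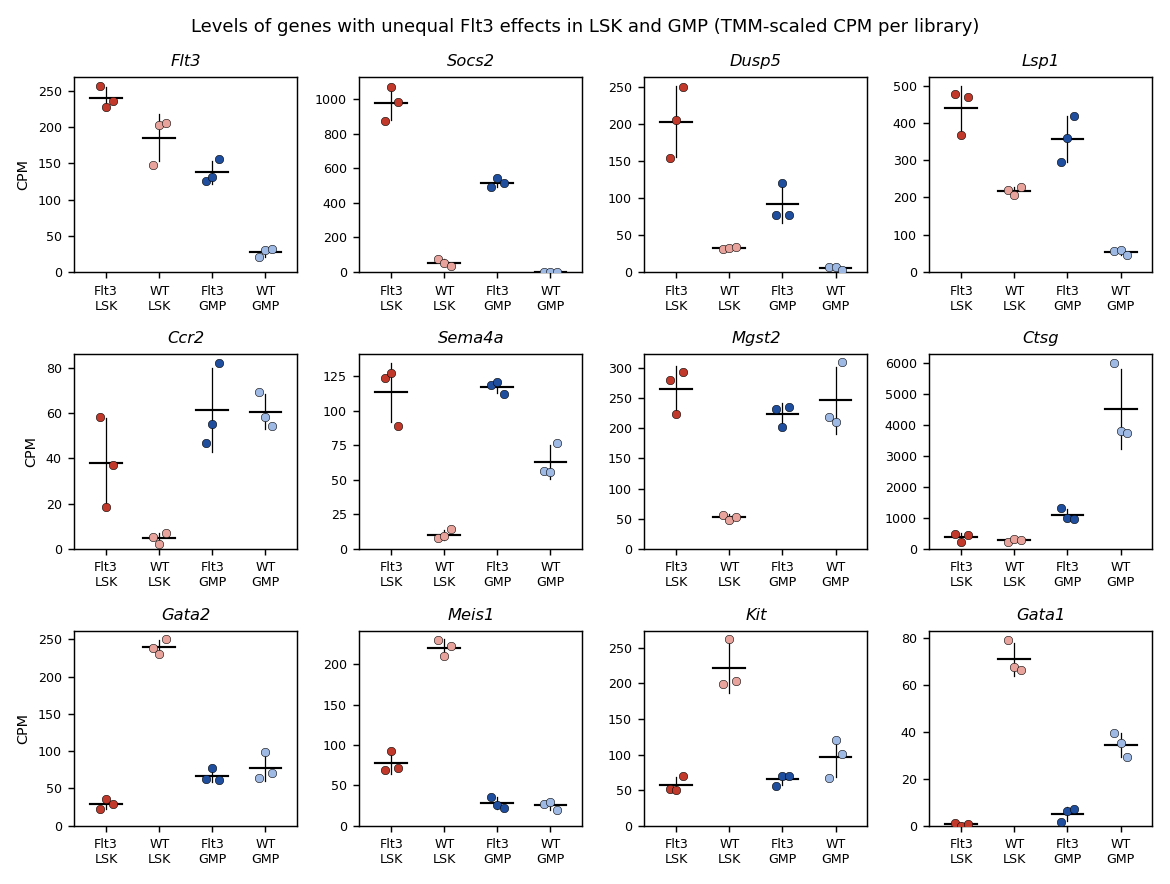
CPM per library of 12 genes with unequal Flt3 effects in the 4 groups; points are libraries, the horizontal line is the mean and the vertical line spans ± 1 SD (n = 3). Sema4a and Mgst2 are as high in Flt3 LSK as in Flt3 GMP, Gata2 is lower in Flt3 LSK than in GMP of either genotype, and Ctsg lies at 3754 to 5999 CPM in WT GMP, above every library of the other groups.

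The primary granule list had 13 tested genes, among them the transcription factor genes Cebpe and Gfi1. Gfi1 is also in the list of myeloid fate transcription factors. Of the 13, 7 fell in Flt3 LSK and 12 in Flt3 GMP, none rose in either, and 5 had a positive difference (Ctsg, Nkg7, Prtn3, Serpinb1a and Gfi1). Over all tested genes 6.91% fell in LSK, 8.65% fell in GMP and 3.63% had a positive difference. The median effect of the granule genes was -0.82 in LSK and -1.50 in GMP. Summed over the 13 genes, levels were 3885 to 6339 CPM in Flt3 LSK, against 4171 to 6003 CPM in WT LSK, and 27598 to 34694 CPM in Flt3 GMP, against 60287 to 70040.4 CPM in WT GMP. Ctsg (chr14:56099885-56102574), which encodes cathepsin G, had 468, 222 and 449.7 CPM in Flt3 LSK, against 237, 311 and 269 CPM in WT LSK. Among GMP it had 1308, 1004 and 952 CPM in Flt3 mice, against 5999, 3793 and 3754 CPM in WT mice. It fell in GMP by 2.06 ± 0.29, the LSK groups overlapped, and the difference was 2.56 ± 0.41 (adjusted p = 0.00672). Without Flt3 LSK replicate 2, Ctsg was called higher in LSK as well (adjusted p = 0.00586).

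Nkg7, a granule membrane gene, had 602, 610.1 and 613 CPM in Flt3 LSK, against 667, 809.5 and 725 CPM in WT LSK. It had 916, 746 and 712 CPM in Flt3 GMP, against 2066, 2147 and 2485 CPM in WT GMP (difference 1.23 ± 0.18, adjusted p = 4.82e-05). Prss57, a serine protease gene of granules that is not in the list, had 158, 103 and 93.6 CPM in Flt3 GMP, against 387, 403 and 402 CPM in WT GMP, while the LSK groups overlapped. Without WT LSK replicate 2, Prss57 was called higher in LSK (adjusted p = 0.0295). Prtn3, the proteinase 3 gene, had a difference of 1.15 ± 0.27 (adjusted p = 0.0175), which was not called without WT GMP replicate 1 (adjusted p = 0.0725). For the myeloperoxidase gene Mpo, which fell by 0.86 ± 0.23 in GMP, the difference was not called (adjusted p = 0.105). The count of granule genes that fell in LSK was 2 without Flt3 LSK replicate 3 and 2 without WT LSK replicate 3, and 4 without Flt3 LSK replicate 2 or WT LSK replicate 2. The count of positive differences was 3 without WT LSK replicate 1, Flt3 GMP replicate 2 or Flt3 GMP replicate 3.

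Gfi1, a repressor gene of the neutrophil fate, had 16.0, 17.5 and 18.8 CPM in Flt3 LSK, against 21.2, 39.0 and 36.0 CPM in WT LSK. It had 34.1, 20.9 and 20.8 CPM in Flt3 GMP, against 119, 109 and 121 CPM in WT GMP. The difference of 1.42 ± 0.39 (adjusted p = 0.0238) was lost without Flt3 LSK replicate 3, WT LSK replicate 1, Flt3 GMP replicate 2 or Flt3 GMP replicate 3 (adjusted p between 0.0605 and 0.0774). Of the 6 tested late neutrophil genes none had unequal effects, while the median effect was -1.65 in LSK and -4.51 in GMP. Without WT LSK replicate 3 the LSK median was -0.87, and without WT GMP replicate 2 or 3 it was -0.92. The GMP median was -2.77 without WT GMP replicate 3, and 1 gene had unequal effects without Flt3 GMP replicate 1. The interferon gamma receptor gene Ifngr1 had 219, 196 and 149 CPM in Flt3 LSK, against 169.6, 254 and 270.2 CPM in WT LSK. It had 268, 259 and 240.3 CPM in Flt3 GMP, against 592, 671 and 852 CPM in WT GMP, and the difference was called (1.17 ± 0.24, adjusted p = 0.00439). Without WT LSK replicate 1, Ifngr1 was called lower in LSK as well (adjusted p = 0.0492).

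Megakaryocyte and erythroid genes fell in both fractions, by more in LSK for some. Of 11 tested megakaryocyte genes 10 fell in LSK and 6 in GMP, and 5 had a negative difference. The same shares over all tested genes were 6.91%, 8.65% and 3.17%. Itga2b, the platelet integrin gene, had 7.69, 5.24 and 5.84 CPM in Flt3 LSK, against 130.2, 173 and 119 CPM in WT LSK. In GMP it had 8.98, 18.4 and 14.6 CPM in Flt3 mice, against 51.3, 62.8 and 31.5 CPM in WT mice (difference -2.71 ± 0.47, adjusted p = 0.000514). Both Flt3 groups lay below both WT groups. Gp1bb and Selp, genes of the platelet surface and its granules, had differences of -4.20 ± 1.01 and -3.05 ± 0.81, lost without Flt3 GMP replicate 2 (adjusted p = 0.155 for Gp1bb and 0.184 for Selp) and for Selp also without Flt3 GMP replicate 3 (adjusted p = 0.0523). Gp1bb was also lost with all 30 libraries (adjusted p = 0.139) and after thinning to equal totals (adjusted p = 0.0959). Few reads were left in Flt3 mice, 4 counts over LSK and 12 over GMP for Gp1bb, and 12 and 9 for Selp. The number of megakaryocyte genes with a negative difference was 2 without Flt3 GMP replicate 2, and 3 without Flt3 LSK replicate 3, WT LSK replicate 2, Flt3 GMP replicate 1, Flt3 GMP replicate 3, WT GMP replicate 1 or WT GMP replicate 3.

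Of 14 tested erythroid genes 13 fell in LSK and 7 in GMP, and 2 had unequal effects. The same shares over all tested genes were 6.91%, 8.65% and 6.8%. Gata1, the master regulator gene of red cells and platelets, had 1.28, 0 and 0.615 CPM in Flt3 LSK, against 79.1, 67.7 and 66.2 CPM in WT LSK. It had 1.80, 6.15 and 7.28 CPM in Flt3 GMP, against 39.4, 35.1 and 29.2 CPM in WT GMP. It fell by 6.57 ± 0.45 in LSK and by 2.62 ± 0.41 in GMP (difference -3.95 ± 0.76, adjusted p = 0.00155). After thinning to equal library totals the Gata1 interaction was -2.88 ± 0.99 and not called (adjusted p = 0.0767). Trfr2, now Tfr2, was the other (-1.51 ± 0.41, adjusted p = 0.0236), and its call was lost without Flt3 LSK replicate 3, WT LSK replicate 3, Flt3 GMP replicate 3 or WT GMP replicate 3. The macrophage markers moved in the same direction in LSK, where 10 of 11 tested fell, with no difference of effects called for any of the 11. Summed, the macrophage markers lay at 374, 785 and 2411 CPM in WT LSK replicates 1, 2 and 3, where Gata1 was 79.1, 67.7 and 66.2 CPM. A part of those cells in the erythroid fall was not tested.

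Among mast cell and basophil genes, Prss34, a basophil protease gene, had 19.2, 12.2 and 21.5 CPM in Flt3 LSK, against 73.2, 254 and 181 CPM in WT LSK. The GMP levels were 417, 375 and 222 CPM in Flt3 mice, against 239.9, 205 and 181 CPM in WT mice, and the groups overlapped (difference -3.82 ± 0.67, adjusted p = 0.0134). Without WT LSK replicate 1 its rise in GMP was called (adjusted p = 0.0229). Cpa3, a mast cell protease gene, fell in both, by 3.42 ± 0.38 in LSK and 1.31 ± 0.27 in GMP, and the difference was lost without Flt3 LSK replicate 2 (adjusted p = 0.0564). On the linear scale Cpa3 fell more in GMP. Gzmb, a granzyme gene, had 0, 0 and 1.04 CPM in Flt3 GMP, against 15.5, 13.0 and 15.4 CPM in WT GMP, and its difference was lost without Flt3 LSK replicate 3, WT LSK replicate 3 or any Flt3 GMP library (adjusted p between 0.0513 and 0.322). Of the 9 tested genes of this list 6 fell in LSK and 7 in GMP, where the count was 3 without WT GMP replicate 1 and 4 without Flt3 GMP replicate 2 or 3. Over all tested genes 6.91% fell in LSK and 8.65% in GMP.

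Of 7 tested lymphoid priming genes 1 rose in LSK and 3 in GMP, and 3 had a negative difference, among them Flt3 and Lsp1. Among all tested genes 4.49% rose in LSK, 7.19% rose in GMP and 3.17% had a negative difference. Lsp1, a leukocyte actin-binding gene, had 478, 368 and 471 CPM in Flt3 LSK, against 221, 207 and 228 CPM in WT LSK. It had 295, 359 and 419 CPM in Flt3 GMP, against 57.3, 58.8 and 45.3 CPM in WT GMP. Both rose, by 1.01 ± 0.14 and 2.74 ± 0.17 (difference -1.73 ± 0.22, adjusted p = 4.47e-06).

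Tcf4, a transcription factor gene of plasmacytoid dendritic cells, had 84.6, 77.7 and 91.04 CPM in Flt3 LSK, against 114, 79.2 and 92.1 CPM in WT LSK. It had 66.5, 72.5 and 70.7 CPM in Flt3 GMP, against 31.0, 30.5 and 41.5 CPM in WT GMP (difference -1.21 ± 0.29, adjusted p = 0.0103). It was the 1 of 8 tested dendritic genes with unequal effects, although 5 rose in LSK and 7 in GMP. The shares over all tested genes were 6.8% for unequal effects, 4.49% for a rise in LSK and 7.19% for a rise in GMP. For MHC class II the folds were not told apart: 5 of 9 tested rose in LSK and 8 in GMP, with median effects of 2.40 and 3.44, and no difference was called. The GMP count was 5 without Flt3 GMP replicate 2. Of 24 interferon response genes 3 had a negative difference, among them Stat2 and Gbp2, and 1 did without Flt3 GMP replicate 3 or WT GMP replicate 2. A negative difference was called for 3.17% of all tested genes. The difference of Stat2 was lost without Flt3 GMP replicate 2 or WT GMP replicate 2, and that of Gbp2 without any 1 of Flt3 LSK replicate 2, WT LSK replicate 3, Flt3 GMP replicate 3 and WT GMP replicates 2 and 3 (adjusted p between 0.0501 and 0.254).

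**Figure D4:**
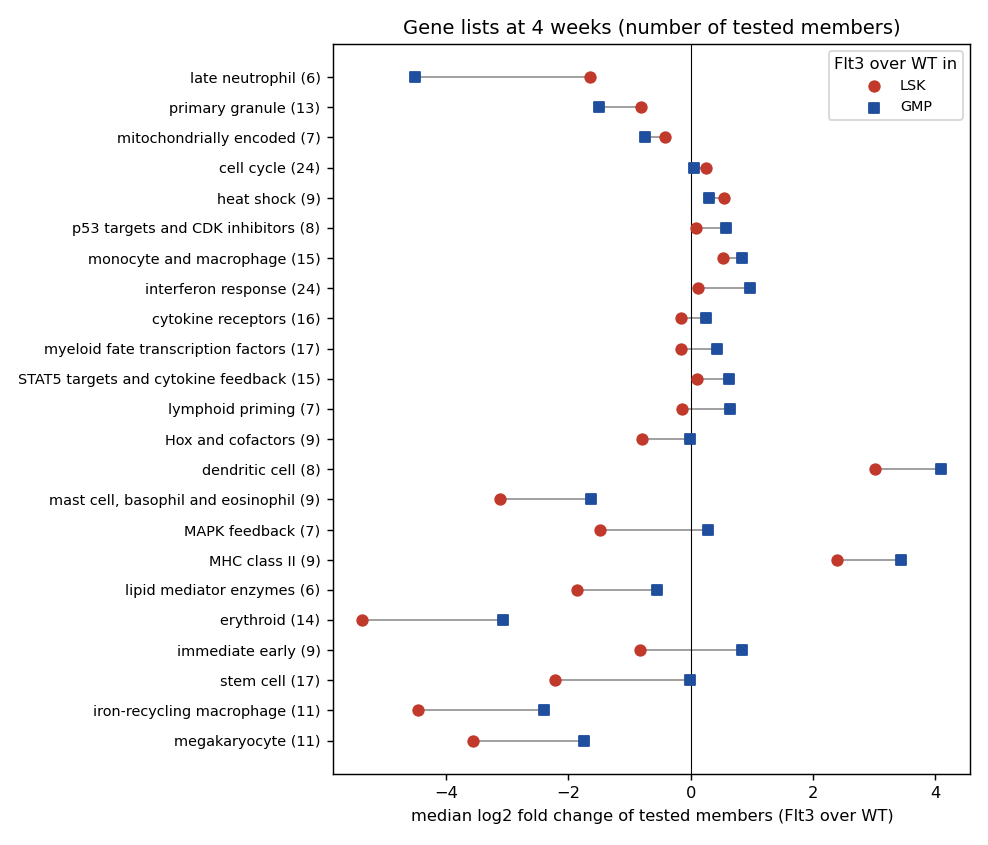
Median log2 fold change, Flt3 over WT, of the tested members of 23 gene lists in LSK (red circles) and in GMP (blue squares), with the number of members in parentheses and lists ordered by the median difference of effects. Immediate early genes lie on opposite sides of 0 at -0.83 in LSK and 0.84 in GMP, and stem cell genes lie at -2.21 in LSK and -0.02 in GMP; without Flt3 GMP replicate 2 that GMP median is -0.59.

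The largest class, 256 genes with a positive difference and a fall in GMP alone, held many genes of protein synthesis and energy supply. These families were picked by symbol after their values were seen, so their counts describe the class and test nothing. Over all tested genes 8.65% fell in GMP and 3.63% had a positive difference. Of 77 tested genes of cytoplasmic ribosomal proteins 1 rose and 1 fell in Flt3 LSK, while 67 fell in Flt3 GMP and none rose, and 43 had a positive difference and none a negative one. Their median effect was 0.05 in LSK (-0.06 without WT LSK replicate 3) and -0.71 in GMP. Summed, the 77 genes had 54224, 54074 and 57635 CPM in Flt3 LSK, against 63644, 51296 and 48411 CPM in WT LSK. In GMP the sums were 57977, 59124 and 48549 CPM in Flt3 mice, against 106101, 81409 and 79988 CPM in WT mice. WT GMP thus stood apart from the other 3 groups. Rpl27 had 363, 349 and 267 CPM in Flt3 GMP, against 667, 577 and 492 CPM in WT GMP.

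Nuclear genes of the respiratory chain and ATP synthase behaved alike, with 51 of 74 lower in Flt3 GMP and 29 with a positive difference. Cox7b, a cytochrome oxidase subunit gene, had 513, 504 and 452 CPM in Flt3 LSK, against 453, 439.8 and 459 CPM in WT LSK. It had 505, 519.9 and 469 CPM in Flt3 GMP, against 1135, 938 and 872 CPM in WT GMP (difference 1.09 ± 0.18, adjusted p = 0.000233). Of 71 mitochondrial ribosomal protein genes 22 fell in GMP and 15 had a positive difference. The same numbers were 15 and 8 of 37 for the proteasome, 9 and 9 of 21 for Sm and LSm proteins of the splicing machinery, and 13 and 11 of 21 for the ER translocon and its partners. Sec61b, a subunit of the translocon, had 658, 548 and 553 CPM in Flt3 GMP, against 1245, 1006 and 993 CPM in WT GMP. No gene of these 6 families had a negative difference. These counts depended on the libraries too. Without single libraries the number of positive differences was 16 to 31 for the respiratory chain (16 without Flt3 GMP replicate 3, 17 without Flt3 LSK replicate 1 and 19 without WT GMP replicate 1). For mitochondrial ribosomal proteins it was 7 without Flt3 GMP replicate 3 or WT GMP replicate 1 and 8 without Flt3 LSK replicate 1. For the proteasome it was 1 without Flt3 LSK replicate 1, 3 without WT LSK replicate 1 or 3, Flt3 GMP replicate 3 or WT GMP replicate 1, and 4 without Flt3 LSK replicate 3 or Flt3 GMP replicate 2. For Sm and LSm proteins it was 5 without WT LSK replicate 3. The number lower in GMP was 8 for the proteasome without Flt3 GMP replicate 2 or 3 or WT GMP replicate 1, and 14 for mitochondrial ribosomal proteins without Flt3 GMP replicate 3.

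Under median-ratio scaling 67 ribosomal protein genes again fell in GMP. Both scalings take most genes as unchanged, and a part of the scaling in these falls was not tested. Counting could split reads between these genes and their near-identical copies, which was not tested either. The number with a positive difference, 43, depended on the libraries: it was 25 without Flt3 GMP replicate 3, 26 without WT LSK replicate 2, 26 without WT LSK replicate 3 and 28 without WT GMP replicate 1, and 23 with all 30 libraries in the fit. Many of these transcripts are short. The median length of the longest annotated transcript (GENCODE vM21) was 1413 bases for the 256 genes, 1685 bases for all genes with a positive difference, 3530 bases for those with a negative one and 3200 bases for all tested genes. Which of the paired-end and 3′ kits was used is not given by library, and whether transcript length has a part in these differences was not tested. TMM factors were 0.83 to 0.89 in WT GMP and 0.98 to 1.09 in the other groups.

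Seen from the side of cell type, the unequal effects went with a smaller distance between LSK and GMP in Flt3 mice. In Flt3 mice 607 genes (6.37%) differed between LSK and GMP, with 263 higher (2.76%) and 344 lower (3.61%) in LSK. In WT mice 3096 (32.5%) differed, with 1688 higher (17.7%) and 1408 lower (14.8%). The Flt3 count varied with the libraries, at 374 without Flt3 GMP replicate 1, 390 without Flt3 GMP replicate 2 and 402 without Flt3 LSK replicate 3. Flt3 GMP were also the shallowest libraries, and after thinning all libraries to 1 total the number of LSK against GMP calls in Flt3 mice was 451 and that of LSK against GMP calls in WT mice was 2192. Of the 648 genes, 85 were called between LSK and GMP in Flt3 mice and 602 in WT mice, and by these calls 19 were in Flt3 mice only and 536 in WT mice only. For 587 of the 648 (90.6%) the absolute log2 difference between LSK and GMP was smaller in Flt3 than in WT mice, against 6430 of all 9525 tested genes (67.5%). Both measures are built from the same 12 libraries as the difference of effects, so they restate it from another side and are no separate test.

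In 8 of the 648 genes LSK and GMP differed in both genotypes in opposite directions. They are Gata2, Jun, Dhrs3, Cd48, Pcp4l1, Glul, Gata1 and Dusp3. Gata2, for example, was lower in Flt3 LSK than in Flt3 GMP and higher in WT LSK than in WT GMP. Cd48 was the reverse, higher in Flt3 LSK than in Flt3 GMP and lower in WT LSK than in WT GMP. Of the sign-turning genes 24 of 26 had a smaller distance between LSK and GMP in Flt3 mice.

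**Figure D5:**
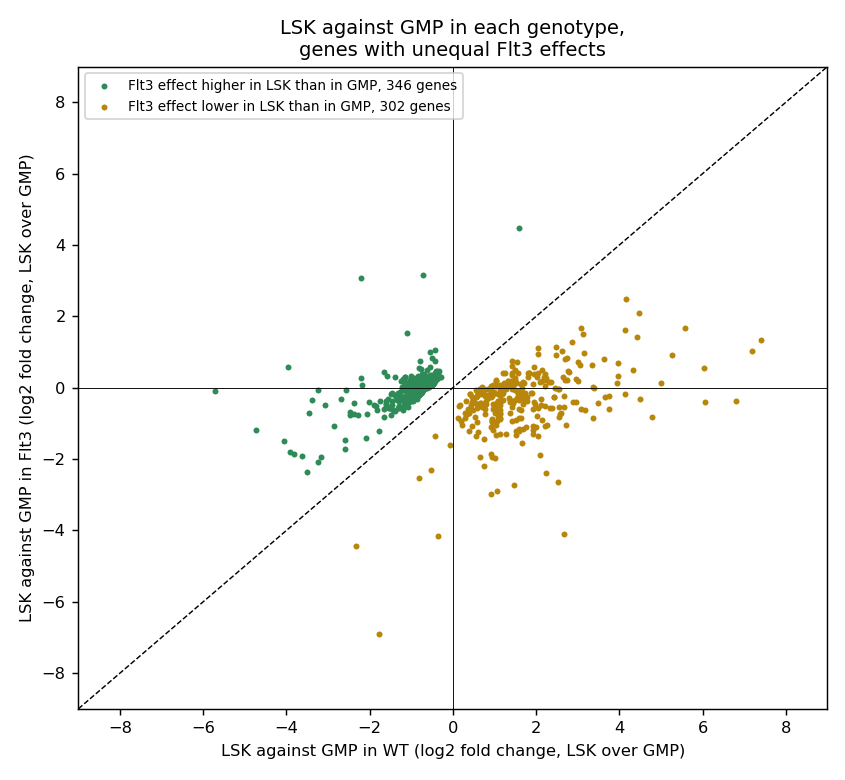
For the 648 genes with unequal Flt3 effects, the log2 fold change of LSK over GMP in Flt3 mice (y axis) is plotted against that in WT mice (x axis), and equal differences lie on the dashed line. The points of 587 genes lie closer to 0 on the y axis than on the x axis.

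Of 24 tested cell cycle genes, 8 p53 targets and CDK inhibitors, 9 MHC class II genes and 11 macrophage markers none had unequal effects. With 6.8% of all tested genes called, nothing is read from the low counts in this paragraph. Of 16 tested cytokine receptor genes 1 had a positive difference (Ifngr1) and 1 a negative one (Kit). The heat shock list had 1 of 9 (Hspe1) and the mitochondrially encoded genes 1 of 7 (mt-Nd1), both positive. The chaperonin gene Hspe1 had effects of 0.43 ± 0.15 in LSK and -0.44 ± 0.15 in GMP, the GMP call being lost without any Flt3 GMP library or without WT GMP replicate 1. Of 17 tested myeloid fate transcription factor genes Gfi1 had a positive and Tcf4 a negative difference.

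The sign of a difference depends on the scale for a few genes. For 10 of the 648 the difference of CPM had the opposite sign to the difference of log2 folds, 8 of them with a negative log2 difference. They are Socs2, Epb4.1l4b, Tox, Tifab, Kcnk5, Cpa3, Gm4951, Clec4a2, Dusp5 and Xrcc5. Xrcc5, the Ku80 gene of DNA repair, fell in GMP to 1.80, 0 and 1.04 CPM in Flt3 mice, against 19.1, 10.2 and 10.8 CPM in WT mice, and its difference (2.89 ± 0.87, adjusted p = 0.0391) was lost without any 1 of 7 libraries (Flt3 LSK replicate 1, the 3 WT LSK libraries, Flt3 GMP replicates 2 and 3 and WT GMP replicate 1; adjusted p between 0.0542 and 0.138). At the threshold, Pink1 (-0.74 ± 0.23) and Lyrm2 (1.38 ± 0.44) lay just inside it at an adjusted p of 0.0498, and Ube2h (-1.87 ± 0.59) and Aff4 (-1.97 ± 0.62) just outside at 0.05 and 0.0501. The absolute log2 difference of the 648 genes lay between 0.54 and 7.18, with a median of 1.10.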

How the data were processed

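The authors deposited whole-number read counts for each gene symbol, with no scaling. The submitters' processing notes name STAR, featureCounts and the mm10 build. Versions, annotation and strand setting are not given in the sources used here. Of 30 libraries in the table, the 12 labelled 4w were used, with total counts of 572370 to 3030228.

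Genes were filtered with filterByExpr, scaled by TMM and tested in edgeR 4.0.16 (R 4.3.3, robust quasi-likelihood F test) with 4 group means and contrasts, p adjusted by Benjamini-Hochberg at 0.05. The SE is the log2 fold change divided by the square root of F. On simulated data with 9171 genes the interaction test recovered 73% of 4-fold and 28% of 2-fold changes, with 4 false calls. In that simulation all groups shared the mean of each gene, save for the changed genes in Flt3 LSK. The real LSK and GMP groups differ, and recovery for genes that are low in a single group was not tested. No 2 replicates were copies (lowest chi-square per degree of freedom 2.26).

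Members and the 27 gene lists, with 375 genes, were chosen with earlier results of these data known. Of these genes 367 matched by symbol, 6 by synonym and 2 not at all. Genes named were Flt3, the 8 largest called differences in each direction with a mean log2 CPM of at least 4 (passing over predicted and clone names), the 12 sign-turning genes whose smaller effect was largest, up to 3 called members per list and 4 sort markers. Other named genes, the remaining sign-turning ones among them, were chosen after their values were seen. Alternatives were DESeq2 1.42.0, median-ratio factors, no filter or one of 5 CPM in 3 libraries, all 30 libraries, blocks and leaving out each library. Results for some genes are not reported here.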

Additional observations from a re-analysis of the deposited data

Results flagged for a closer look

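Of the 26 sign-turning genes, the 12 whose smaller single effect was largest are given here, passing over predicted and clone names. In each the difference between the effects was itself called by edgeR. The values are the effect in LSK minus that in GMP on the log2 scale. For Mllt3, the chromatin reader gene, the difference was -4.29, for the semaphorin receptor gene Plxnc1 -3.66, for the receptor gene Notch2 -3.21 and for Zfp187 -2.76. For the plectin gene Plec it was -2.71, for Jun -2.56, for the phosphatase gene Dusp1 -2.54 and for Dhrs3 -2.09. For Dennd5a it was -1.74, for Ypel3 -1.66, for Stat5b -1.64 and for Tspan13 -1.58. In these 12 the level was lower in Flt3 LSK than in WT LSK and higher in Flt3 GMP than in WT GMP. The 26 also hold 11 genes with the opposite pattern, higher in Flt3 LSK and lower in Flt3 GMP than in WT. No explanation was tested.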

How the results depend on the processing

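The number of genes with unequal effects was 648. It was 726 with DESeq2 (618 of the genes shared), 693 with median-ratio factors, 424 with all 30 libraries and 405 after thinning every library to 572370 counts, a setting added after the data were seen. Leaving out 1 library gave 375 to 627, with 413 without Flt3 LSK replicate 1, 375 without Flt3 GMP replicate 3 and 420 without WT GMP replicate 1. The share of positive differences was 53.4%, and 58.8% with DESeq2 and 60.0% with median-ratio factors. The 26 sign-turning genes became 44 with no filter, 17 with all 30 libraries and 13 to 29 on leaving out 1 library (13 without Flt3 LSK replicate 1 and 15 without Flt3 GMP replicate 3). The LSK effect calls numbered 713 after thinning and 816 to 1295 on leaving out 1 library. The GMP effect gave 969 to 1579, the lowest without Flt3 GMP replicate 3. LSK against GMP gave 2560 to 3247 calls in WT and 374 to 666 in Flt3 mice.

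LSK and GMP libraries of 1 genotype share a number in titles and codes, so they may come from the same animal. The main fit did not pair them. Correlations of their residuals were 0.00465 to 0.101 for the same number and -0.0932 to 0.0587 for different numbers. Such low values do not show that the animals differ. With a replicate block by code 893 genes were called (632 shared), and Igkc (adjusted p = 0.0847) and Prss34 (adjusted p = 0.0735) were lost. With a replicate block by title number 659 were called (603 shared), 33 of them sign-turning. Over named genes and alternatives, 1138 comparisons kept direction and side of the threshold, 80 lost the call and 1 reversed, the uncalled difference of Ly6a (Ly6a interaction 0.013 after thinning). The causes were not tested. Depth limits low genes, since 3 counts over Flt3 GMP equal 1.29 CPM and over WT LSK 0.446 CPM.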
